A study of Mus musculus with 14 samples.

Results

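The genes described here are Atf4, the transcription factor at the centre of the integrated stress response, and 9 of its known targets. Of the targets, Trib3 feeds back on ATF4, and the others serve the synthesis and uptake of serine, cysteine and related amino acids. These 10 genes were taken by symbol from the 17097 genes measured in mouse hypothalamus. Each is represented by the probe set that names only that gene and has the highest mean over the 14 arrays, and the 10 genes have 15 such probe sets in all. The study measured whole hypothalamus from mice 12 weeks old, on a mixed C57Bl/6J, FVB/N and 129 background. Mice with Mfn1, which encodes a mitochondrial fusion protein, deleted specifically in POMC neurons were compared with controls, and mice of each genotype were either random fed or went without food for 16 h. Both fed groups had 4 arrays and both fasted groups 3. POMC neurons are a small population of the hypothalamus, so the deletion touches few of the cells whose RNA each array measured. The labels name neither the Cre driver nor the genotype of the controls beyond the word control. Whether each array stands for a separate animal is not stated either, so the tests measure the spread between samples, which may be technical.

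Phosphorylation of the translation factor eIF2 slows protein synthesis and raises translation of Atf4 mRNA, so that much of the control of ATF4 lies after transcription. ATF4 then activates genes of amino acid supply: the serine pathway enzymes Phgdh, Psat1 and Psph, the transsulfuration enzyme Cth, asparagine synthetase, and amino acid exchangers at the cell surface. In the brain, serine made through this pathway comes largely from astrocytes, and cystine taken up through Slc7a11 supplies cysteine for glutathione.

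ATF4 binds a composite element with C/EBP proteins, searched here as TGATGNAAN on both strands of the RefSeq promoters of GRCm38.p6, which run from 250 bases before each listed start to 50 bases after it. The table held 9 of the 10 genes, with 10 promoters, and no entry for Cth. The element's letters were in 3 of these 9 genes, Slc7a11, Asns and Trib3, and in 3.95% of all 32851 promoters. Slc7a11 carried it at 66 and, on the opposite strand, at 48 bases before the start, and Asns carried it at 23 bases before the start. In Trib3 the match, TTTACATCA, lay in transcribed sequence, 14 bases from the start. The letters of the antioxidant response element core (TGACNNNGC), none of whose matches overlapped a match of the composite element, were in Asns, Phgdh and Psph and in 12.4% of all promoters. The cyclic AMP response element (TGACGTCA) was in none of the 9 genes and in 1.79% of all promoters. A match describes letters in this window and is not evidence of binding. The 130 bases before the start are shown for Slc7a11 (chr3:50443614-50443743) and Asns (chr6:7693210-7693339), which carry the element there, and for Psat1 (chr19:15925060-15925189, the more upstream of its 2 listed starts) and Slc3a2 (chr19:8713898-8714027), which rose on fasting and do not. All 4 genes lie on the minus strand. Capitals mark the composite element.
Slc7a11: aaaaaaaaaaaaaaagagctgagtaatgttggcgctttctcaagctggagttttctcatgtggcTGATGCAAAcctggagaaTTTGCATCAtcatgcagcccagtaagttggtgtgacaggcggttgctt
Asns: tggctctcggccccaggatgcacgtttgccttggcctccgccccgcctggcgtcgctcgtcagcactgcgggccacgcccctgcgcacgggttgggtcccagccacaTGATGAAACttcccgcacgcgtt
Psat1: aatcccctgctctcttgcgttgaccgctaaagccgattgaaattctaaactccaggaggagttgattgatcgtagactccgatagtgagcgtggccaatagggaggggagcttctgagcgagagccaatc
Slc3a2: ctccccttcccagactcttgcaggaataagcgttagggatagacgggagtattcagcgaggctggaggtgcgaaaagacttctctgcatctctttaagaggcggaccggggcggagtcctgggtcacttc

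All values are log2 expression values as deposited, and a difference of 1 on this scale is a doubling of signal. The 23 probe sets without a target had means between 3.41 and 5.28, with a median of 3.64, which marks the background. Trib3 (mean over 14 arrays 4.30) and Shmt2 (4.92) lay within that range, so their levels cannot be told from background, and Slc7a11 (5.31) lay just above it. The other 7 genes lay between 6.50 for Cth and 10.3 for Atf4. All 10 marker genes of hypothalamic neurons lay above background, and all 5 measured markers of the anterior pituitary lay within it. The mean level of the hypothalamic neuron markers was 8.56 on control fed replicate 1 and between 9.04 and 9.48 on the other arrays. Without that array the averaged fasting calls of the 10 genes did not change, and the control difference of Slc3a2 (0.18) and of Slc7a11 (-0.88) lost theirs. Mfn1 itself lay between 8.99 and 9.10 on the control arrays and between 9.03 and 9.12 on the knockout arrays, so these values do not tell the genotypes apart. For RNA quality, the signal at the 3' end minus that at the 5' end ranged from 0.77 to 0.94 for Actb and from -0.03 to 0.12 for Gapdh. For Gapdh it lay between -0.03 and 0.05 in knockout fed and between 0.06 and 0.10 in knockout fasted mice, and its part in the fasting differences of knockout mice was not tested. In control mice the Gapdh values overlapped (0.05 to 0.12 fed, 0.04 to 0.08 fasted). The sample titles carry numbers that fall into a lower and a higher series. All 6 fasted samples and knockout fed replicate 1 are in the lower series, and the other 7 fed samples are in the higher one. What this numbering stands for is not given, and it separates feeding state almost completely.

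The question of the fasting comparison is how a 16 h fast changed these genes in the hypothalamus. Averaged over both genotypes, 3 of the 10 genes rose, Psat1, Cth and Slc3a2, and 1 fell, Slc7a11 (limma, adjusted p under 0.05 over all genes). The other 6 did not pass, among them Atf4 itself and the serine pathway enzymes Phgdh and Psph. Of all 17097 genes, 10.03% passed the same test, 5.14% higher and 4.90% lower. The median difference was 0.07 over the 10 genes and 0.00 over all genes. Fasted and fed arrays did not overlap for 2 of the 10, Psat1 and Slc3a2, against 3.40% of all genes. In bulk tissue, fewer cells of a type and less RNA per cell cannot be told apart.

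**Figure D1:**
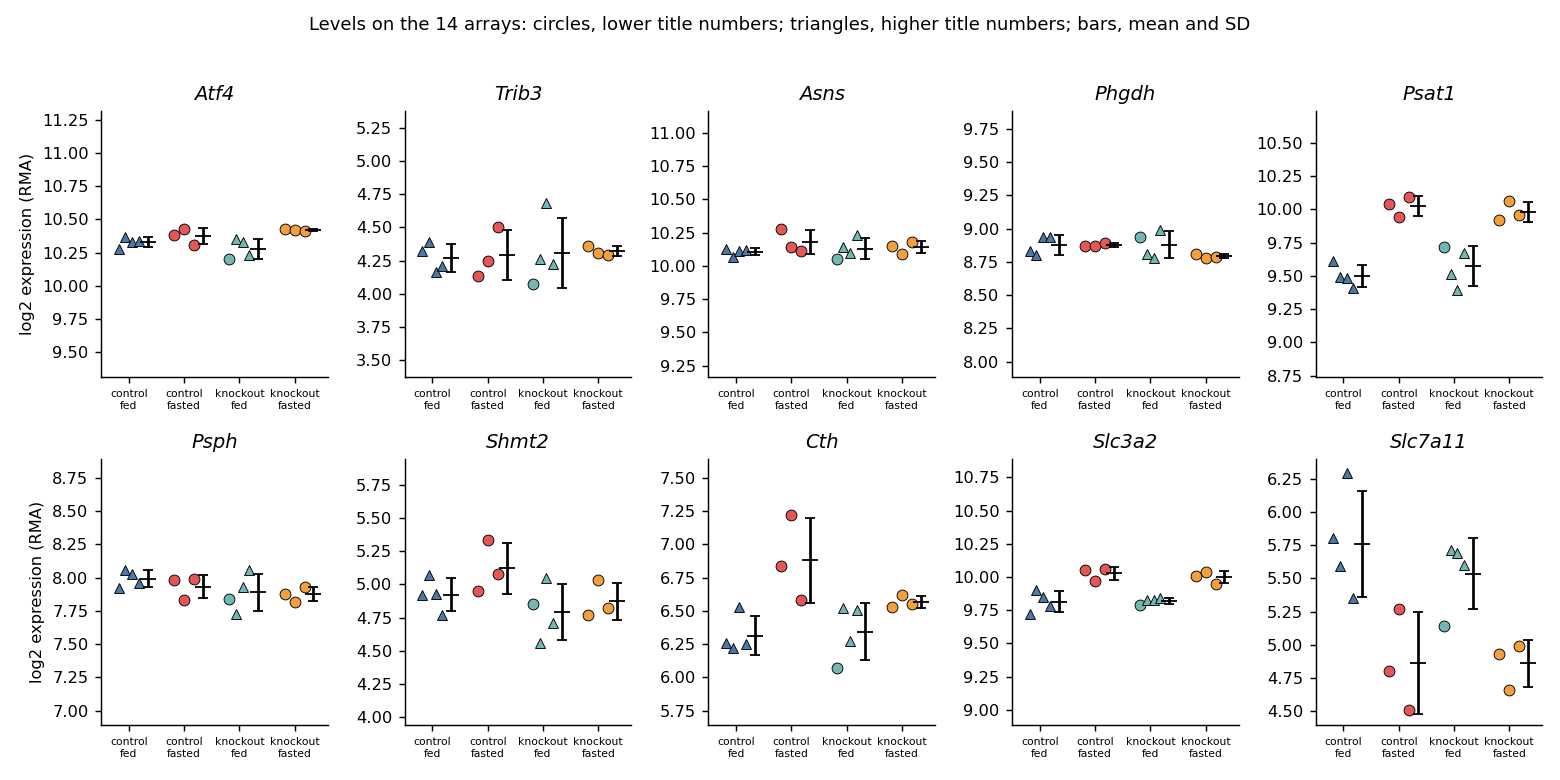
Log2 expression of the 10 genes on each of the 14 arrays, by group. Points are arrays, circles for the lower series of title numbers and triangles for the higher, and bars give the mean and SD. All panels span the same height in log2 units. Psat1 on the 6 fasted arrays (9.92 to 10.09) lay above all 8 fed arrays (9.39 to 9.72), and Slc7a11 lay lowest in the fasted groups.

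Atf4 is regulated mainly through translation, and its mRNA is one part of its activity. In control mice it was at 10.28, 10.37, 10.33 and 10.34 when fed and at 10.38, 10.43 and 10.31 when fasted. In knockout mice it was at 10.20, 10.35, 10.33 and 10.23 when fed and at 10.43, 10.42 and 10.41 when fasted. The control groups overlapped, whereas all 3 fasted knockout arrays lay above the 4 fed ones, as they did for 7.37% of all genes. The fasting response of Atf4 was 0.10 (SE 0.07) more positive in knockout mice, which did not pass (limma, adjusted p = 0.9999). These values therefore do not show that its response differed between the genotypes. The averaged difference of 0.09 ± 0.04 (SE) did not pass (adjusted p = 0.131, 95% interval 0.01 to 0.17), nor did that of knockout mice (0.14 ± 0.05, adjusted p = 0.203). Its other probe set lay at background, with a mean of 3.72.

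Trib3, a pseudokinase that feeds back on ATF4, and Asns, which makes asparagine, are among the targets most often used to read out ATF4 activity. Trib3 lay between 4.07 and 4.68 on fed arrays and between 4.13 and 4.50 on fasted arrays, at the level of background throughout. Its averaged fasting difference was 0.02 (95% interval -0.17 to 0.21). Asns was well above background and hardly varied, between 10.05 and 10.23 on fed arrays and between 10.09 and 10.28 on fasted arrays. Its averaged difference was 0.04 ± 0.04 (adjusted p = 0.589, 95% interval -0.05 to 0.13). The interval for Asns thus ends below the estimates for Psat1, Cth and Slc3a2.

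Phgdh, Psat1 and Psph catalyse successive steps from the glycolytic intermediate 3-phosphoglycerate to serine. Of these enzymes only Psat1, the aminotransferase of the middle step, passed the test in any fasting comparison. Psat1 was at 9.61, 9.49, 9.48 and 9.41 in control fed mice (mean 9.50 ± 0.08 SD, n = 4) and at 10.04, 9.94 and 10.09 in control fasted mice (10.02 ± 0.08, n = 3). In knockout mice it was at 9.72, 9.51, 9.39 and 9.67 when fed (9.57 ± 0.15, n = 4) and at 9.92, 10.06 and 9.96 when fasted (9.98 ± 0.07, n = 3). Every fasted array lay above every fed array, and knockout fed replicate 1 was the highest of the fed arrays. The averaged difference was 0.47 ± 0.06, a 1.38-fold rise (adjusted p = 0.000422), and it ranked 57 of all 17097 genes by p. Psat1 passed in each genotype alone, with a 1.44-fold rise in control mice (adjusted p = 0.00347) and a 1.33-fold rise in knockout mice (adjusted p = 0.0428). The call in knockout mice lay close to the threshold and was lost in 11 of 21 alternative fits, with differences between 0.26 and 0.46.

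Phgdh, the enzyme of the first step, was at 8.83, 8.80, 8.94 and 8.94 in control fed mice and at 8.87, 8.87 and 8.89 in control fasted mice. In knockout mice it was at 8.94, 8.81, 8.78 and 8.99 when fed and at 8.81, 8.78 and 8.79 when fasted. Fed and fasted arrays overlapped in both genotypes. The averaged difference was -0.04 ± 0.04 (adjusted p = 0.565, 95% interval -0.14 to 0.05), and its other probe set gave -0.03 ± 0.04. Psph, the phosphatase of the last step, lay between 7.73 and 8.06 on fed arrays and between 7.82 and 7.99 on fasted arrays. Its averaged difference was -0.04 ± 0.05 (adjusted p = 0.718, 95% interval -0.15 to 0.08). The intervals of both enzymes end below the lower bound of 0.34 for Psat1.

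Psat1 was also set against its pathway partners by the difference between genes within each array. Such a difference cancels an offset shared by a whole array, but not effects that depend on signal level. The pairs were chosen after the values were seen, so their differences are a description and no test result is given. Psat1 minus Phgdh lay between 0.47 and 0.78 on fed arrays and between 1.07 and 1.28 on fasted arrays, a shift of 0.51. Psat1 minus Psph lay between 1.43 and 1.88 on fed arrays and between 2.03 and 2.24 on fasted arrays, a shift of 0.50. Neither difference overlapped between fed and fasted arrays. Knockout fed replicate 1, the fed array of the lower number series, was the highest fed array for Psat1 minus Psph and level with control fed replicate 1 as the highest for Psat1 minus Phgdh.

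Shmt2 converts serine to glycine in mitochondria and feeds the folate pool. Its chosen probe set lay between 4.56 and 5.07 on fed arrays and between 4.77 and 5.33 on fasted arrays, within the range of background. The averaged fasting difference of 0.14 ± 0.08 did not pass (adjusted p = 0.325, 95% interval -0.04 to 0.32). Its other probe sets, also at background, gave 0.06 ± 0.06 and -0.06 ± 0.04.

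Cth, the enzyme that releases cysteine from cystathionine, was at 6.26, 6.22, 6.53 and 6.25 in control fed mice (mean 6.32 ± 0.14 SD, n = 4) and at 6.84, 7.22 and 6.58 in control fasted mice (6.88 ± 0.32, n = 3). In knockout mice it was at 6.07, 6.52, 6.27 and 6.51 when fed (6.34 ± 0.22, n = 4) and at 6.53, 6.62 and 6.55 when fasted (6.57 ± 0.05, n = 3). The highest fed array met the lowest fasted array at 6.53, and control fasted replicate 2 was the highest of all. The averaged difference was 0.39 ± 0.10, a 1.31-fold rise (adjusted p = 0.0243). In control mice it was 0.57 ± 0.14 (adjusted p = 0.05004, just short of the threshold), and in knockout mice 0.22 ± 0.14 (adjusted p = 0.457). The averaged rise no longer passed without knockout fasted replicate 2 (0.38, adjusted p = 0.0626) or without knockout fed replicate 3 (0.38, adjusted p = 0.0501).

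Slc3a2 encodes the heavy chain shared by a family of amino acid exchangers at the cell surface. It was at 9.72, 9.90, 9.85 and 9.78 in control fed mice (mean 9.81 ± 0.08 SD, n = 4) and at 10.05, 9.97 and 10.06 in control fasted mice (10.03 ± 0.05, n = 3). In knockout mice it was at 9.79, 9.83, 9.83 and 9.84 when fed (9.82 ± 0.02, n = 4) and at 10.01, 10.04 and 9.95 when fasted (SD 0.05, n = 3). All 6 fasted arrays lay above all 8 fed arrays. The rise was small, 0.20 ± 0.04 or 1.15-fold on average (adjusted p = 0.00635), with 0.21 ± 0.05 in control mice (adjusted p = 0.0491) and 0.18 ± 0.05 in knockout mice (adjusted p = 0.124). The call in control mice rested close to the threshold and was lost in 13 of 21 alternative fits, 11 of them fits without 1 array, where the adjusted p reached 0.170.

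Slc7a11 is the light chain that pairs with Slc3a2 to import cystine in exchange for glutamate. It was at 5.80, 5.59, 6.29 and 5.35 in control fed mice (mean 5.76 ± 0.40 SD, n = 4) and at 4.80, 5.27 and 4.51 in control fasted mice (4.86 ± 0.38, n = 3). In knockout mice it was at 5.14, 5.71, 5.69 and 5.60 when fed (5.54 ± 0.27, n = 4) and at 4.93, 4.66 and 4.99 when fasted (4.86 ± 0.18, n = 3). Fed and fasted arrays did not overlap within either genotype, but knockout fed replicate 1 lay below control fasted replicate 2. On average Slc7a11 was 1.72-fold lower on fasting (-0.79 ± 0.15, adjusted p = 0.00719), with -0.90 ± 0.22 in control mice (adjusted p = 0.0462) and -0.68 ± 0.22 in knockout mice (adjusted p = 0.153). All 6 fasted values lay within the range of the probe sets without a target, so the size of the fall may be compressed. The call in control mice was lost in 13 of 21 alternative fits, 10 of them fits without 1 array, where the adjusted p reached 0.187.

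The other Slc7a11 probe set did not pass. It lay between 4.48 and 4.97 on fed arrays and between 4.20 and 4.94 on fasted arrays, within background, with an averaged difference of -0.20 ± 0.11 (limma over all probe sets, adjusted p = 0.317, 95% interval -0.44 to 0.05). The mean of both probe sets fell by 0.49 on the log2 scale and passed the test. The fall of Slc7a11 therefore rests on the brighter of its probe sets.

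**Figure D2:**
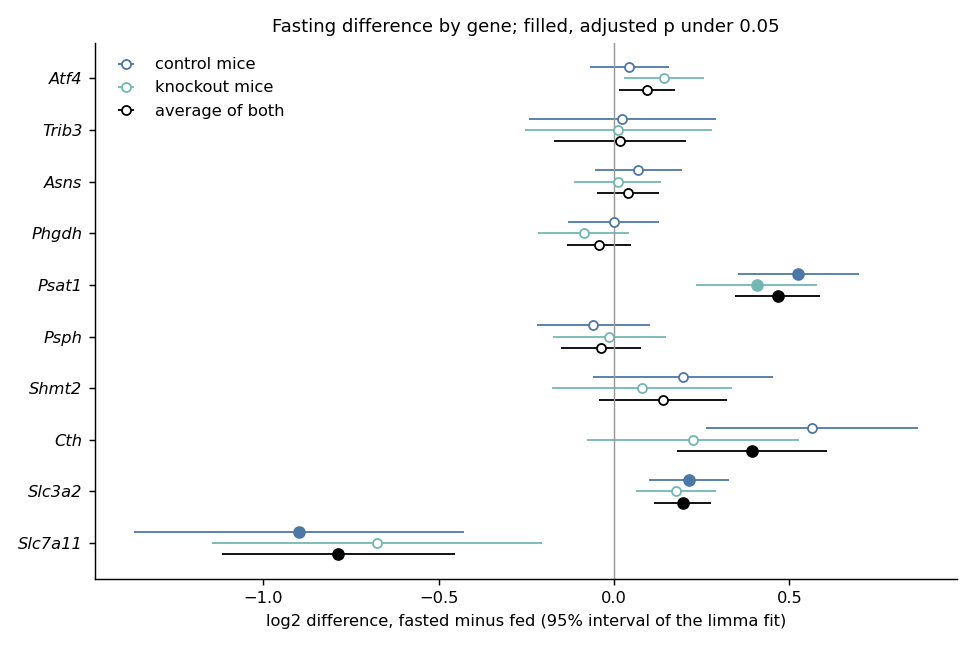
Difference between fasted and fed mice for each gene on the log2 scale, in control mice, knockout mice and averaged. Bars are 95% intervals of the limma fit and filled points have an adjusted p under 0.05 over all genes. Psat1 is filled throughout (0.53, 0.41 and 0.47), whereas the intervals of Asns, Phgdh and Psph include 0.

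The heavy chain and the cystine light chain were compared within arrays in the same way. Slc3a2 minus Slc7a11 lay between 3.56 and 4.65 on fed arrays and between 4.70 and 5.55 on fasted arrays, a shift of 0.98. The gap between the highest fed array, knockout fed replicate 1, and the lowest fasted array was narrow. Cth minus Slc7a11, which sets the enzyme that makes cysteine beside the importer of its oxidised form, lay between 0.24 and 0.93 on fed arrays and between 1.56 and 2.07 on fasted arrays, a shift of 1.18. These pairs, too, were chosen after the directions of their genes were seen, so no test result is given for them. Since Slc7a11 lay in the background range on all 6 fasted arrays, the size of both shifts is uncertain.

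**Figure D3:**
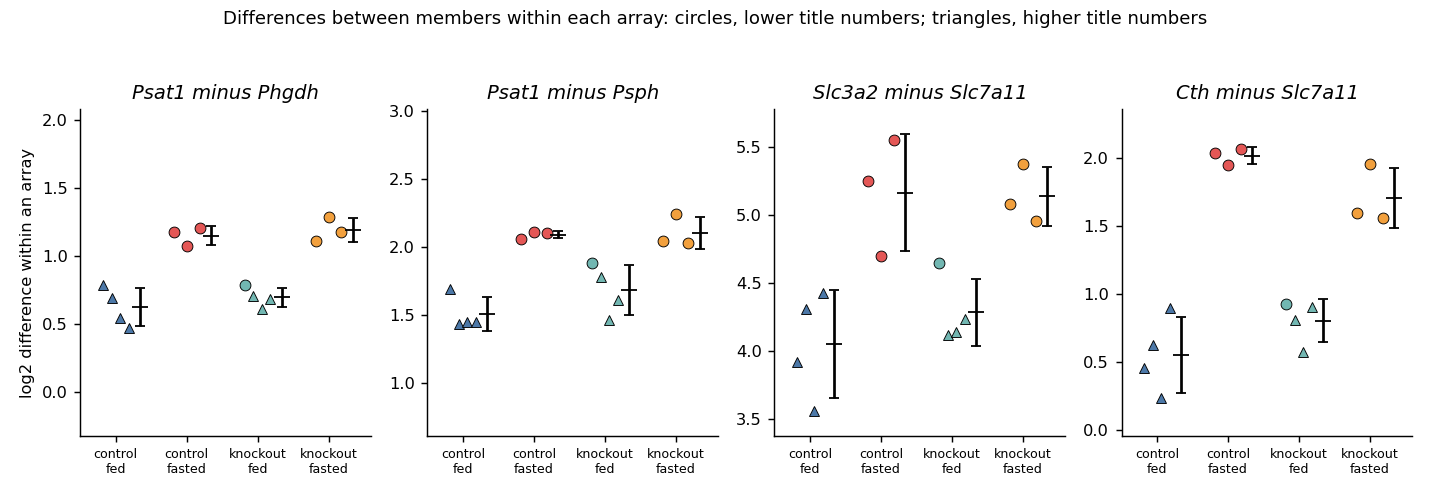
Log2 differences between pairs of genes within each array, by group, with the mean and SD as bars. Circles are arrays of the lower series of title numbers and triangles those of the higher. In each of the 4 panels all fasted arrays lie above all fed arrays, most narrowly for Slc3a2 minus Slc7a11 (4.70 against 4.65). The pairs were chosen after the values were seen, and Psat1 and Slc3a2 already separated fed from fasted arrays alone. No share over other gene pairs is given.

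Slc3a2 also pairs with other light chains, all of which were on the list of transporters described below. Slc7a5, which imports large neutral amino acids, rose by 0.57 ± 0.06 (adjusted p = 0.000163). Slc7a10, a serine and small neutral amino acid exchanger of the brain, was lower (-0.32 ± 0.07, adjusted p = 0.0135). Slc7a6 (0.15 ± 0.07), Slc7a8 (0.14 ± 0.10) and Slc7a7 (-0.20 ± 0.09, at background) did not pass. The partners of Slc3a2 thus differed in direction.

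The number in the sample titles was nearly the same split as feeding state, and with it as a covariate none of the 10 genes passed. The averaged differences were then 0.29 for Psat1 (adjusted p = 0.363), 0.71 for Cth (adjusted p = 0.200), 0.23 for Slc3a2 (adjusted p = 0.323) and -0.33 for Slc7a11 (adjusted p = 0.772), and 15 of all 17097 genes passed. In this fit the offset between the number series rests on knockout fed replicate 1, the only fed array in the lower series. In knockout mice the fit sets the fasted arrays against that array, with 0.26 for Psat1 and 0.50 for Cth. In control mice it shifts the difference by the gap between that array and the other knockout fed arrays, with 0.33 for Psat1 and 0.93 for Cth. That array lay at 9.72 for Psat1, 6.07 for Cth and 9.79 for Slc3a2, below every fasted array, and at 5.14 for Slc7a11, inside the fasted range. With only 1 fed array in the low series and no fasted array in the high one, the part of the numbering in these differences can hardly be told apart from fasting.

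**Figure D4:**
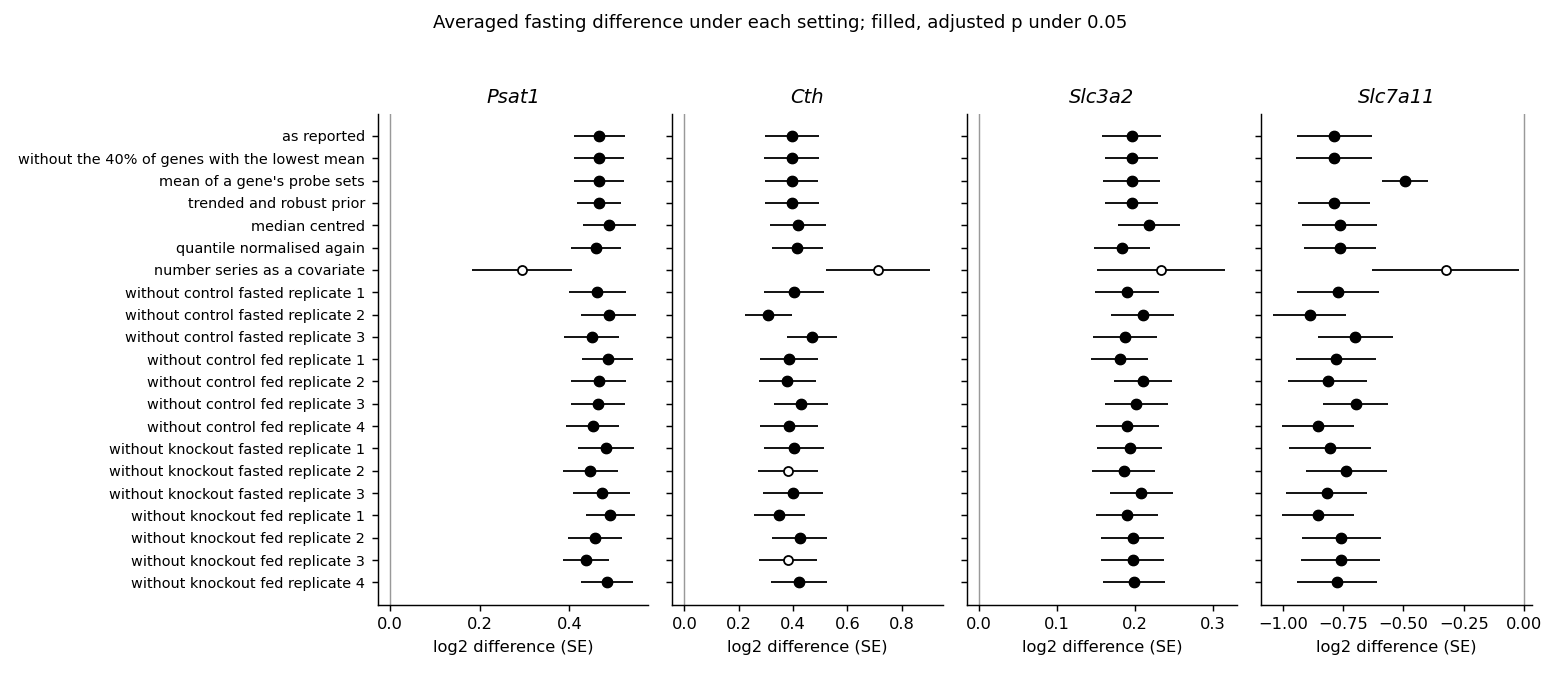
Averaged fasting difference of Psat1, Cth, Slc3a2 and Slc7a11 on the log2 scale under each alternative setting, with SE bars. Filled points have an adjusted p under 0.05. With the number series as a covariate every point is open (0.29, 0.71, 0.23 and -0.33), and the point of Cth is also open in the fits that drop knockout fasted replicate 2 or knockout fed replicate 3.

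Markers of glial cells, from lists chosen with earlier results of these data known, are given beside these results. Of all genes, 5.14% were higher, 4.90% lower and 3.40% without overlap between fed and fasted arrays. All 14 astrocyte markers were measured and lay above background, and 4 rose (Aldh1l1, Gjb6, Fgfr3 and Agt) while Aqp4 fell. Their mean level lay between 9.52 and 9.60 on fed arrays and between 9.67 and 9.83 on fasted arrays, without overlap. The 3.40% is a share of single genes and is no comparison for a mean over 14 markers. Knockout fed replicate 1 was at 9.58, within the fed range. Of the 10 microglial markers 5 fell and none rose, and their mean level lay between 7.19 and 7.42 on fed arrays and between 6.83 and 7.17 on fasted arrays. Of the 8 endothelial markers 3 fell, with mean levels between 7.18 and 7.59 on fed and between 6.92 and 7.35 on fasted arrays. Of the 9 oligodendrocyte markers measured 2 rose and 2 fell. The neuron markers, 0 of 11 past the threshold, had mean levels from 10.86 to 10.99 on fed arrays and from 10.86 to 10.93 on fasted arrays. The part of these shifts in the changes of Psat1, Cth, Slc3a2 and Slc7a11 was not tested.

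The genotype comparison asks whether deletion of Mfn1 in POMC neurons changed these genes. None of the 10 passed in the averaged comparison, where 0.00585% of all genes, a count of 1, passed. At an unadjusted p under 0.05, Shmt2 alone of the 10 was lower in knockout mice (-0.19 ± 0.08, adjusted p = 0.999 in limma), beside 4.65% of all genes, and its values lay in background. In fed mice 0 of the 10 passed, against 0.00585% of all genes, and in fasted mice 0 of the 10, against 0% of all genes. In neither feeding state did any of the 10 reach an unadjusted p under 0.05 in limma, as 4.62% of all genes did in fed and 3.86% in fasted mice. Phgdh in fasted mice was the 1 gene of the 10 whose genotypes did not overlap, beside 7.64% of all genes in either direction. It lay lower in knockouts (8.78 to 8.81) than in controls (8.87 to 8.89), as 3.45% of all genes did without overlap. That difference of -0.08 ± 0.06 did not pass (adjusted p = 1), and its other probe set gave -0.01 ± 0.07.

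For the genes that changed on fasting, the averaged genotype differences were bounded as follows. For Psat1 the difference was 0.02 (95% interval -0.11 to 0.14) and for Slc3a2 it was -0.01 (-0.09 to 0.07). For Cth it was -0.14 (-0.36 to 0.07) and for Slc7a11 -0.11 (-0.44 to 0.22), so that larger differences remain possible for these. Atf4 differed by 0.00 between the genotypes (-0.08 to 0.08). The choroid plexus markers had a median genotype difference of 1.32 towards knockout arrays, with 0 of 8 past the threshold. Their mean level varied widely, from 5.71 to 7.98 in control fed, 5.83 to 7.04 in control fasted, 5.90 to 8.69 in knockout fed and 7.94 to 8.07 in knockout fasted mice. Their part in the genotype values was not tested.

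Whether the fasting response differed between genotypes was tested as an interaction, in which a positive value means a more positive response in knockout mice. None of the 10 passed, as did 0% of all genes, and none reached an unadjusted p under 0.05 in limma, which 3.82% of all genes did. In control mice alone 3 of the 10 passed (Psat1, Slc3a2 and Slc7a11), beside 2.76% of all genes, and in knockout mice 1 (Psat1), beside 0.696%. These counts do not show a difference in response, since the interaction of Slc3a2 was -0.04 ± 0.07 and that of Slc7a11 0.22 ± 0.31. Cth had the lowest p of the 10, with an interaction of -0.34 ± 0.20 (adjusted p = 0.9999 in limma, 95% interval -0.77 to 0.09). It was -0.17 without control fasted replicate 2 and ranged to -0.49 without control fasted replicate 3. Fed and fasted arrays did not overlap for 4 of the 10 in control mice, beside 16.5% of all genes, and for 5 in knockout mice, beside 13.01%.

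Over the 14 arrays some of the changed genes also varied together, which is a description, since the arrays share the feeding states and the number series. Psat1 and Slc3a2 had a Pearson r of 0.83, and both ran opposite to Slc7a11, with r of -0.85 and -0.76. Cth had weaker r, of 0.64 with Slc3a2, 0.60 with Psat1 and -0.29 with Slc7a11. Psat1 and its pathway partners had r of -0.14 with Phgdh and -0.17 with Psph. Atf4 had its highest r among the 10 with Slc3a2 (0.63), followed by Cth (0.59), and an r of 0.15 with Asns. Its lowest r was -0.63, with Phgdh.

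Of all genes measured, those with patterns most like Psat1 over the 14 arrays were Mfsd2a (r = 0.97), a lysophospholipid transporter, Apmap (0.97) and Fgfr3 (0.96), an astrocyte marker. They rose on fasting by 1.85, 0.29 and 0.60 on the log2 scale. Most like Slc3a2 were Gpn3 (0.96), Plce1 (0.94) and Pgm1 (0.94), and most like Cth were Tmem232 (0.92), Plat (0.88) and Sycp3 (0.88). Most like Slc7a11 were Exph5 (0.93), Zdhhc23 (0.93) and Elp4 (0.92). Atf4 was most like Ccdc50 (0.91), Gemin7 (0.90) and Lypd6 (0.90), none of which passed the fasting test. Phgdh was most like Ntpcr (0.85), Gja1 (0.85), an astrocyte gap junction gene, and Kifap3 (0.83). Asns was most like Pqlc3 (0.92), Cyp11b1 (0.84) and Smim10l2a (0.84), and Psph most like Lats2 (0.87), Itgb6 (0.81) and Mrpl28 (0.80). The background-level genes Trib3 and Shmt2 were most like Sos1 (0.88), Cfap46 (0.86) and C1rb (0.85), and Supt4b (0.87), Kcnj3 (0.83) and Adam2 (0.82). An r of 0.82 to 0.88 was thus reached even by genes at background. Each r named here is among the highest over all genes measured, so it describes likeness on 14 arrays and is no test.

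Other genes of the pathway were taken from lists that hold none of the 10, and they are given for the averaged fasting comparison. The lists were chosen with earlier results of these data known, so their counts are a description. Counts are to be read against the 5.14% of all genes that rose and the 4.90% that fell in this comparison. Of 19 measured transcription and feedback genes of the integrated stress response, 3 rose and 1 fell, with a median difference of 0.11 beside 0.00 over all genes. The growth inhibitor Ddit4 rose by 1.17 ± 0.15, the C/EBP factor Cebpb by 0.48 ± 0.11 and the endoplasmic reticulum protein Herpud1 by 0.32 ± 0.06, whereas the lipoprotein receptor Vldlr fell by 0.19 ± 0.05. The stress factors Ddit3 (0.14 ± 0.05, adjusted p = 0.0772) and Atf3 (0.17 ± 0.09, at background) and the glutathione-degrading enzyme Chac1 (0.07 ± 0.05) did not pass. The eIF2 phosphatase subunit Ppp1r15a also did not pass (0.50 ± 0.16, adjusted p = 0.0632 in limma), and 16 of the 19 differences were above 0. The next list held 18 measured genes, the aminoacyl-tRNA synthetases, which load amino acids onto tRNA, and the tRNA exporter Xpot. Of these, 5 rose by 0.13 to 0.18 (Gars, Nars, Qars, Rars and Sars) and none fell. The shares of all genes were again 5.14% and 4.90%, and the median of the list was 0.07. The other probe sets of Qars, Nars and Sars did not pass. Those of Qars gave 0.12, 0.05 and -0.15, the last at background with a mean of 4.42. Sars passed in 9 of 20 alternative fits, Qars in 14, and Vldlr, Gars and Nars in 16 each.

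Around the serine enzymes, 1 of 14 measured genes of serine, glycine and folate metabolism rose and 2 fell, beside 10.03% of all genes that passed in either direction, with a median difference of 0.02. Aldh1l1, a folate enzyme and astrocyte marker, rose by 0.33 ± 0.04. Serine racemase Srr was lower (-0.34 ± 0.07), but its other probe sets gave -0.12 and 0.14, and Tyms, at background, was lower by its brightest probe set only (-0.24 ± 0.07) and passed in 6 of 19 alternative fits. Around Cth, 3 of 21 genes of transsulfuration, cysteine and glutathione metabolism rose and 1 fell, beside the same 10.03%, with a median of 0.04. Cbs, which makes the cystathionine that Cth cleaves, rose by 0.50 ± 0.04 (adjusted p = 3.47e-05), and its other probe set by 0.60 ± 0.08. Glutathione synthetase Gss rose by 0.22 ± 0.06 (past the threshold in 14 of 20 alternative fits) and Ggt7 by 0.25 ± 0.05, while the mitochondrial sulfurtransferase Tst fell by 0.83 ± 0.06. Both enzymes of transsulfuration, Cbs and Cth, were thus higher in the averaged fasting comparison. Cbs passed there in 19 of 20 alternative fits and Cth in 17, and Cth passed in neither genotype alone in the main fit.

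Of 26 measured amino acid transporters 3 rose and 3 fell, beside 5.14% and 4.90% of all genes, with a median of 0.00. Besides Slc7a5, the cationic amino acid transporter Slc7a1 rose by 0.29 ± 0.05 and the neutral amino acid transporter Slc38a2 by 0.29 ± 0.06. Besides Slc7a10, the glutamine transporters Slc38a3 (-0.35 ± 0.06) and Slc38a5 (-0.61 ± 0.10, with a level in background) were lower. The other probe set of Slc38a3, at background with a mean of 4.80, gave 0.18 ± 0.08. No gene of these lists passed in a genotype comparison or in the interaction, and none of those that passed on fasting did so with the number series as a covariate.

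**Figure D5:**
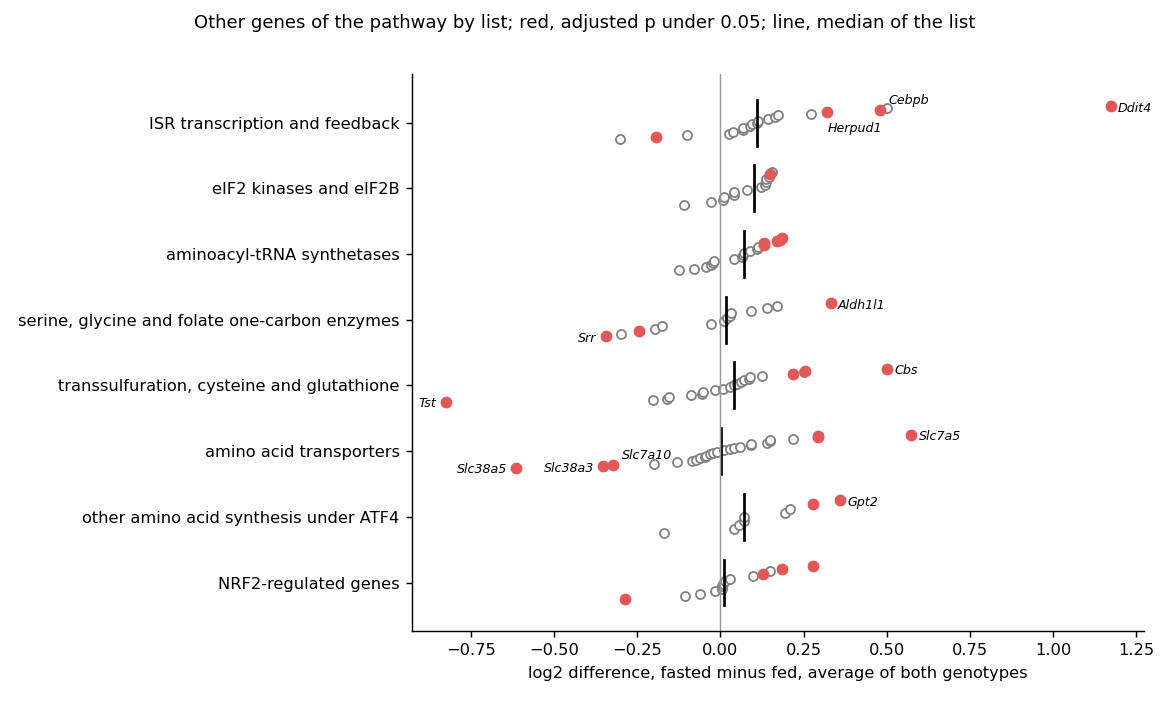
Averaged fasting differences on the log2 scale of the other genes of the pathway, by list. Each point is a gene, red points have an adjusted p under 0.05 over all genes, and the line is the median of the list. Ddit4 (1.17) lies highest and Tst (-0.83) lowest, and the medians of the 8 lists lie between 0.00 and 0.11.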

How the data were processed

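Hypothalamic RNA (150 ng per array) was hybridised to Affymetrix arrays. The authors deposited log2 values. Per the submitters' processing notes, RMA and affy were used (versions not given in the sources used here). RMA compresses differences near background. The values were used as deposited. Platform annotation named 1 gene for 28898 of 45141 probe sets, and each gene took its brightest such probe set.

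The groups were compared with limma 3.58.1, run in R 4.3.3 (lmFit with 1 coefficient per group over 14 arrays, 7 contrasts, eBayes, two-sided). P-values were adjusted by Benjamini-Hochberg over 17097 genes with a threshold of 0.05, and errors of differences are standard errors. The code was tested on simulated data. The number of arrays limits the precision.

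The 10 genes, the 8 pathway lists and the 12 marker lists were chosen with earlier results of these data known. All 10 genes are named. Other named genes are those past the threshold in each list (at most 6 per direction) and, per gene, the 3 genes of highest Pearson r. The light chains of Slc3a2 and the stress genes Ddit3, Atf3, Chac1 and Ppp1r15a were named after their values were seen. Alternatives were dropping the dimmest 40% of genes, averaging the probe sets of each gene, a trended and robust prior, fits on only the groups compared, median centring, quantile normalisation, the number series as a covariate, and leaving out each array.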

Additional observations from a re-analysis of the deposited data

Results flagged for a closer look

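Cth on control fed replicate 3, at 6.53, stood apart from the other control fed arrays, at 6.22, 6.25 and 6.26. Its gap to the nearest array was 0.871 of the range of the group. It was the only such value among 20 groups of 4 arrays examined over the 10 genes, and chance flags about 1 in 20 groups. Without it, the fasting difference of Cth in control mice was 0.64 and passed the test.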

How the results depend on the processing

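Over the 10 genes and 7 comparisons, 1375 of 1426 values under an alternative kept their side of the threshold and, where called, their direction. Of the others 44 lost the call, 7 gained it and 0 called values reversed. With the series of title numbers as a covariate, the count past the threshold was 0 in place of 4 on average, 0 in place of 3 in control mice and 0 in place of 1 in knockout mice. In fits on only the groups compared, it was 1 in control mice and 0 in knockout mice. Leaving out each array gave 3 to 4 genes on average, 1 to 3 in control mice and 0 to 1 in knockout mice. Of 20 alternatives, Psat1, Slc3a2 and Slc7a11 passed on average in 19 and Cth in 17. Psat1 passed in 20 of 21 in control mice and in 10 of 21 in knockout mice, and Cth in control mice passed in 7 of 21. The filter removed Trib3 and Shmt2. The genotype and interaction counts were 0 under every alternative run. No paired analysis was possible because the title numbers are all different and pair no samples. Signals at background limit Trib3, Shmt2 and Slc7a11.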

Other observations

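Genes that control eIF2 act upstream of ATF4. On fasting, of 14 measured eIF2 kinases, eIF2 and eIF2B subunits and their regulators, 1 rose, the eIF2B subunit Eif2b4 (0.15 ± 0.04, adjusted p = 0.0199 in limma), and none fell, a share near the 5.14% of all genes that rose. The median difference was 0.10. The endoplasmic reticulum kinase Eif2ak3 (0.16 ± 0.05, adjusted p = 0.0532) and the amino acid sensing kinase Eif2ak4 (0.04 ± 0.05) did not pass.

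Of 9 measured genes of other amino acid synthesis, 2 rose, beside 5.14% of all genes, the alanine aminotransferase Gpt2 (0.36 ± 0.06) and the arginine pathway enzyme Ass1 (0.28 ± 0.06). Of 14 genes regulated by NRF2, which shares Slc7a11 as a target with ATF4, 3 rose and 1 fell, beside 5.14% and 4.90% of all genes, with a median difference of 0.01. Srxn1, which repairs oxidised peroxiredoxins, rose by 0.28 ± 0.05, Gstm1 by 0.19 ± 0.04 and the ferritin light chain Ftl1 by 0.13 ± 0.03 (past the threshold in 9 of 20 alternative fits), and the NADPH-producing Me1 fell by 0.29 ± 0.04. The glutathione enzymes Gclc (0.03 ± 0.05) and Gclm (0.01 ± 0.04) and Nfe2l2 itself (0.01 ± 0.11) did not pass. Genes named here that did not pass were chosen after their values were seen.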
